A study of Caenorhabditis elegans with 2 samples.

Results

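Genes of sperm differentiation were compared between young adult Caenorhabditis elegans of the wild-type strain N2 raised on Lysinibacillus sphaericus, a bacterium isolated from soil, and young adults of the same strain raised on Escherichia coli OP50, the usual laboratory food. The set holds every gene whose current symbol is spe, fer, ssp, msd, nspd or sss followed by a number, together with gsp-3 and gsp-4. The gene table lists 68 such genes, and 64 of them have a probe among the 19807 genes named on the array. The other 4, ssp-9, ssp-28, nspd-11 and nspd-12, were not analysed here. Per the labels, the worms ate 1 bacterium for their whole life after hatching, at 20 °C, and RNA came from whole bodies. The labels give neither the sex of the worms, nor how many were pooled, nor a second population of either diet. There is 1 one-colour array for each diet, so no test between the diets was possible, no p-value is given, and the spread between worm populations is unknown.

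In the hermaphrodite, the germ line makes sperm during the last larval stage and then changes to making oocytes, and the finished sperm are kept in the spermatheca. A spermatocyte packs the major sperm protein (MSP), which drives the crawling of the amoeboid sperm, into fibrous bodies joined to membranous organelles. Spermatids bud off with these organelles, leave most other components behind in a residual body, and stop making RNA. They are later activated to form a pseudopod, and a set of surface and secreted proteins then allows them to fertilize the oocyte. Many spe and fer genes were found through sterile mutants that are defective in these steps. The symbols ssp, msd, nspd and sss stand for families of small proteins known from sperm.

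A gene's signal is given as a percentage of the 75th percentile of all probes on the same array, and is called its scaled signal. A difference is the log2 of the scaled signal in L. sphaericus-fed worms minus that in OP50-fed worms, taken as the median over the probes of the gene that were well above background on both arrays. Of 64 sperm genes, 61 were measured in this way. The gene spe-29 was well above background in OP50-fed worms only, nspd-8 on neither, and spe-49 on different arrays with different probes. Before scaling, the array of L. sphaericus-fed worms was the brighter, with a 75th percentile of 3368 against 1439.6. On it 33080 of 43803 spots were well above background, and 33343 on that of OP50-fed worms. Another scaling factor moves every difference by the same amount, so counts of sperm genes are read against those of all genes. Genes of MSP, the defining product of sperm, were well above background on both arrays for 27 of the 27 with a probe. In whole worms, fewer sperm or spermatocytes and less RNA in each of them cannot be told apart.

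Most sperm genes were lower in L. sphaericus-fed worms. Of 61 measured, 47 were at least 2-fold lower, 4 at least 2-fold higher and 10 lay between. Among all 15301 measured genes, 32.6% were at least 2-fold lower and 22.1% at least 2-fold higher, while among the sperm genes the shares were 77.0% and 6.56%. At least 4-fold lower were 22 sperm genes, against 14.9% of all genes. The median difference of the sperm genes was −1.56, or 2.95-fold lower, and that of all genes was −0.20. In 56 of the 61 the difference was below 0, where 54.3% of all genes lay. The 5 genes above 0, where 45.7% of all genes lay, were spe-44, spe-39, spe-48, spe-5 and ssp-19.

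The number past 2-fold depended on the scaling. A single scaling factor cannot change the place of the sperm genes among all genes. With scaling on the median of all probes, 29 were at least 2-fold lower and 5 higher, beside 20.8% and 37.9% of all genes. With ribosomal protein genes as the scale the numbers were 24 and 5, beside 17.9% and 41.6%. Without any scaling they were 17 and 6, beside 11.6% and 50.6%, and the 2 added to the higher side were spe-5 and gsp-4. These settings moved the median of all genes by 0.64, 0.81 and 1.23. At a 3-fold threshold, 29 sperm genes were lower and 1 was higher, beside 21.7% and 9.87% of all genes. Quantile normalization, loess centring and the percentile of detected probes moved that median by 0.29, 0.29 and −0.20, and with the last of these 2 sperm genes were at least 2-fold higher, beside 17.2% of all genes. Relative to the median of all genes, the median of the sperm genes was −1.36, which a single scaling factor leaves unchanged by construction. Among settings that can move it, quantile normalization and loess centring gave −1.48 and −1.47. With only the probes at or above the median signal it was −1.52. It was −1.07 with another background correction (normexp) and without the filter on dim probes.

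**Figure D1:**
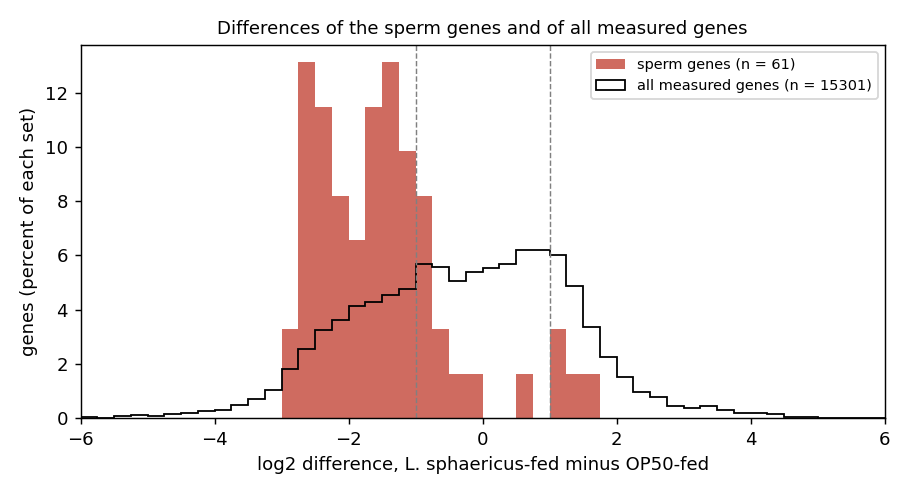
Share of genes (vertical axis, percent of each set) by log2 difference, L. sphaericus-fed minus OP50-fed (horizontal axis), for the 61 measured sperm genes (filled) and all 15301 measured genes (outline), with dashed lines at 2-fold. The sperm genes lie between −2.996 and 1.64, with 56 of them below 0.

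**Figure D2:**
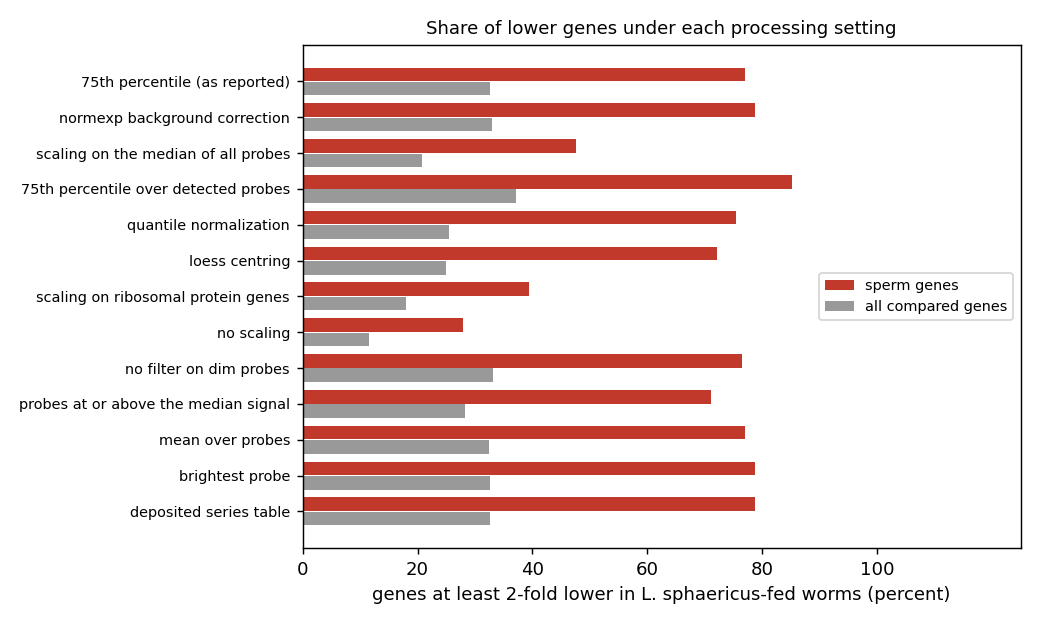
Share of genes at least 2-fold lower in L. sphaericus-fed worms (horizontal axis, percent) under each way of processing the arrays (rows), for the sperm genes (red) and all genes compared (grey). The red bar is the longer one in every row, at 77.0% against 32.6% as reported and 27.9% against 11.6% without scaling.

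Genes that build the fibrous bodies and membranous organelles held the lowest sperm gene. Of 8 such genes, 5 were at least 2-fold lower, 1 was higher and 2 lay between, with a median of −2.16. Of all genes, 32.6% were lower and 22.1% higher by that much. The scaled signal of spe-4, which encodes a presenilin-like protein of the membranous organelles, was 30.3% in L. sphaericus-fed worms against 242% in OP50-fed worms. It was thus 7.98-fold lower, a difference of −2.996 below which 3.68% of all measured genes lay. For spe-18, needed for MSP to assemble into fibrous bodies, the scaled signals were 116% against 505%, or 4.35-fold lower in L. sphaericus-fed worms. Both were at least 4-fold lower.

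The gene spe-10, for a palmitoyltransferase that keeps fibrous bodies joined to their organelles, read 4.57% in L. sphaericus-fed worms against 21.1% in OP50-fed worms and was 4.62-fold lower. The ferlin gene fer-1, which acts when membranous organelles fuse with the cell surface, read 1.502% against 9.14%, or 6.08-fold lower. The value of fer-1 in L. sphaericus-fed worms is only 1.96 times the lowest signal well above background there, so the size of its difference is uncertain. The casein kinase-like gene spe-6, needed for fibrous bodies to form, did not reach 2-fold, with 53.8% against 94.6% and a difference of −0.82, which without scaling lay above 0.

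The remaining 2 genes of this group stood on the other side. For spe-39, a vesicle trafficking gene known to act in other tissues as well as in sperm, the scaled signals in L. sphaericus-fed worms were 137% and 26.2% with its 2 probes, against 61.3% and 8.37% in OP50-fed worms. Both probes were higher in L. sphaericus-fed worms, and the difference was 1.40 ± 0.34 (SD over 2 probes), or 2.64-fold. For spe-5, which encodes a subunit of the vacuolar proton pump, the scaled signal was 34.1% in L. sphaericus-fed worms against 21.1% in OP50-fed worms, a difference of 0.70.

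Of 4 genes of spermatocyte meiosis and spermatid budding, 3 were at least 2-fold lower and 1, gsp-4, lay between. The share of all genes at least 2-fold lower was 32.6%. The myosin VI gene spe-15, which acts when components are sorted into the residual body, was measured by 6 probes, between 11.6% and 45.1% in L. sphaericus-fed worms and between 34.9% and 119.7% in OP50-fed worms. The probes lay close together in their difference, which was −1.56 ± 0.14 (SD over 6 probes), or 2.95-fold lower. The kelch-repeat gene spe-26, needed for spermatocytes to complete meiosis, had 3.24% against 17.7% and was 5.46-fold lower.

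The genes gsp-3 and gsp-4 encode closely similar type 1 protein phosphatases that act in sperm meiosis and sperm motility. The 3 probes of gsp-3 read 149.9%, 156% and 14.5% in L. sphaericus-fed worms, against 695%, 415% and 86.6% in OP50-fed worms. Each probe of gsp-3 was lower in L. sphaericus-fed worms, with differences of −2.21, −1.41 and −2.58, the widest spread among the sperm genes with repeated probes (SD 0.60, median 4.64-fold lower). The single probe of gsp-4 read 82.5% in L. sphaericus-fed worms against 96.2% in OP50-fed worms, a difference of −0.22 that lay above 0 with scaling on the median of all probes, on ribosomal protein genes and without scaling, where it reached 2-fold. How far a probe of either gene also binds RNA of the other was not tested. The related phosphatase genes gsp-1 and gsp-2, which act in many tissues, lay at 0.63 and −0.44, the second above 0 in the same 3 settings.

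Of the spe genes that act in sperm activation, 7 were measured and 7 were at least 2-fold lower in L. sphaericus-fed worms, with a median of −2.26. Activation in hermaphrodites depends on the spe-8 group, of which spe-8 itself encodes a tyrosine kinase. Its 4 probes read 1.24% to 4.41% in L. sphaericus-fed worms and 8.04% to 26.3% in OP50-fed worms. Each of the 4 was lower in L. sphaericus-fed worms. The difference of spe-8 was −2.53 ± 0.21 (SD over 4 probes), or 5.78-fold lower. Among the others, the membrane protein gene spe-12 read 7.49% in L. sphaericus-fed worms against 19.5% in OP50-fed worms and was 2.61-fold lower. The gene spe-19, also for a membrane protein, had 1.47% against 7.07% and was 4.79-fold lower. The genes spe-27 and spe-43 were 4.22-fold and 5.21-fold lower, with 5.35% against 22.6% for spe-27 and 1.46% against 7.62% for spe-43. In L. sphaericus-fed worms, spe-19 and spe-43 were 1.93 and 1.91 times the lowest signal well above background, so the size of their differences is uncertain. Without scaling, 4 of the 7 measured spe genes of activation were at least 2-fold lower, beside 11.6% of all genes (32.6% as reported), and all 7 lay below 0. After loess centring 5 of the 7 were at least 2-fold lower, beside 24.9% of all genes, with a median of −1.47. With normexp background correction the median was −1.71.

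The sixth gene of the group, spe-29, encodes a small membrane protein. All 6 probes of spe-29 were well above background in OP50-fed worms and none in L. sphaericus-fed worms, with medians of 0.305% in L. sphaericus-fed worms and 2.80% in OP50-fed worms. Set against the lowest signal well above background, spe-29 was at least 3.67-fold lower in L. sphaericus-fed worms, from 2.10-fold to 4.63-fold over its probes. The remaining 2 genes set the time of activation. The rhomboid-like gene spe-46 read 21.5% to 23.5% in L. sphaericus-fed worms and 124% to 142% in OP50-fed worms with 3 probes, a difference of −2.59 ± 0.07 (SD over 3 probes), or 6.04-fold lower. The MSP-domain gene spe-47 had 15.8% against 43.9% and was 2.78-fold lower.

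Genes for sperm proteins that act at fertilization were lower too, 6 of 6 by at least 2-fold beside 32.6% of all genes, with a median of −1.99. The gene spe-9, for a surface protein with EGF-like repeats, read 2.85% in L. sphaericus-fed worms against 9.27% in OP50-fed worms and was 3.25-fold lower. For spe-38, which encodes a membrane-spanning sperm protein, the values were 1.05% against 7.01%, or 6.68-fold lower. The gene spe-42, for a membrane protein related to DC-STAMP of mammals, had 1.36% against 7.79% and was 5.73-fold lower. In L. sphaericus-fed worms, spe-38 and spe-42 were 1.37 and 1.78 times the lowest signal well above background, so the size of their differences is uncertain. Without scaling, 3 of the 6 measured fertilization genes were at least 2-fold lower, beside 11.6% of all genes. The number was also 3 after loess centring and with ribosomal protein genes as the scale, beside 24.9% and 17.9%. None of these genes had a measured probe at or above the median signal.

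Genes for secreted proteins were less far apart between the arrays, with 3.88% in L. sphaericus-fed worms against 10.3% in OP50-fed worms for spe-51, or 2.65-fold lower. For spe-36 the values were 4.68% against 10.5%, or 2.24-fold lower, a difference that lay above 0 without scaling. The channel gene spe-41, also known as trp-3 and needed in sperm for fertilization, had 31.4% against 109% and was 3.48-fold lower. The gene spe-49, for a relative of the spe-42 product, has 2 probes that differed. The first was well above background in OP50-fed worms only (0.592% against 4.62%) and the other in L. sphaericus-fed worms only (1.78% against 1.33%), so no fold is given. After fertilization, the embryo needs spe-11, a protein brought by the sperm that acts in egg activation. Its scaled signal was 8.74% in L. sphaericus-fed worms against 27.8% in OP50-fed worms, 3.18-fold lower.

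The transcription factor gene spe-44, which switches on many genes in developing spermatocytes, was higher in L. sphaericus-fed worms. Its scaled signal was 80.5% in L. sphaericus-fed worms against 35.9% in OP50-fed worms, 2.24-fold higher, and the difference was between 0.96 and 2.39 over the settings. It is measured by 1 probe, and was under 2-fold with the percentile of detected probes. The protein-coding genes on either side of it in the gene table, smz-1 and dpy-26, lay at −1.90 and 0.82. Of the 8 remaining spe genes, which include spe-41, 7 were at least 2-fold lower, beside 32.6% of all genes. They ranged from 3.39-fold lower for spe-21 to 6.19-fold lower for spe-55. The lowest, spe-55, read 18.4% against 114% and spe-57 7.59% against 42.8%. The exception was spe-48, with 244% in L. sphaericus-fed worms against 116% in OP50-fed worms, or 2.10-fold higher. The difference of spe-48 was between 0.77 and 2.30 over the settings, and was under 2-fold after quantile normalization, loess centring and with the percentile of detected probes. The genes spe-40, spe-54 and spe-58 were 4.81-fold, 3.73-fold and 3.91-fold lower.

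**Figure D3:**
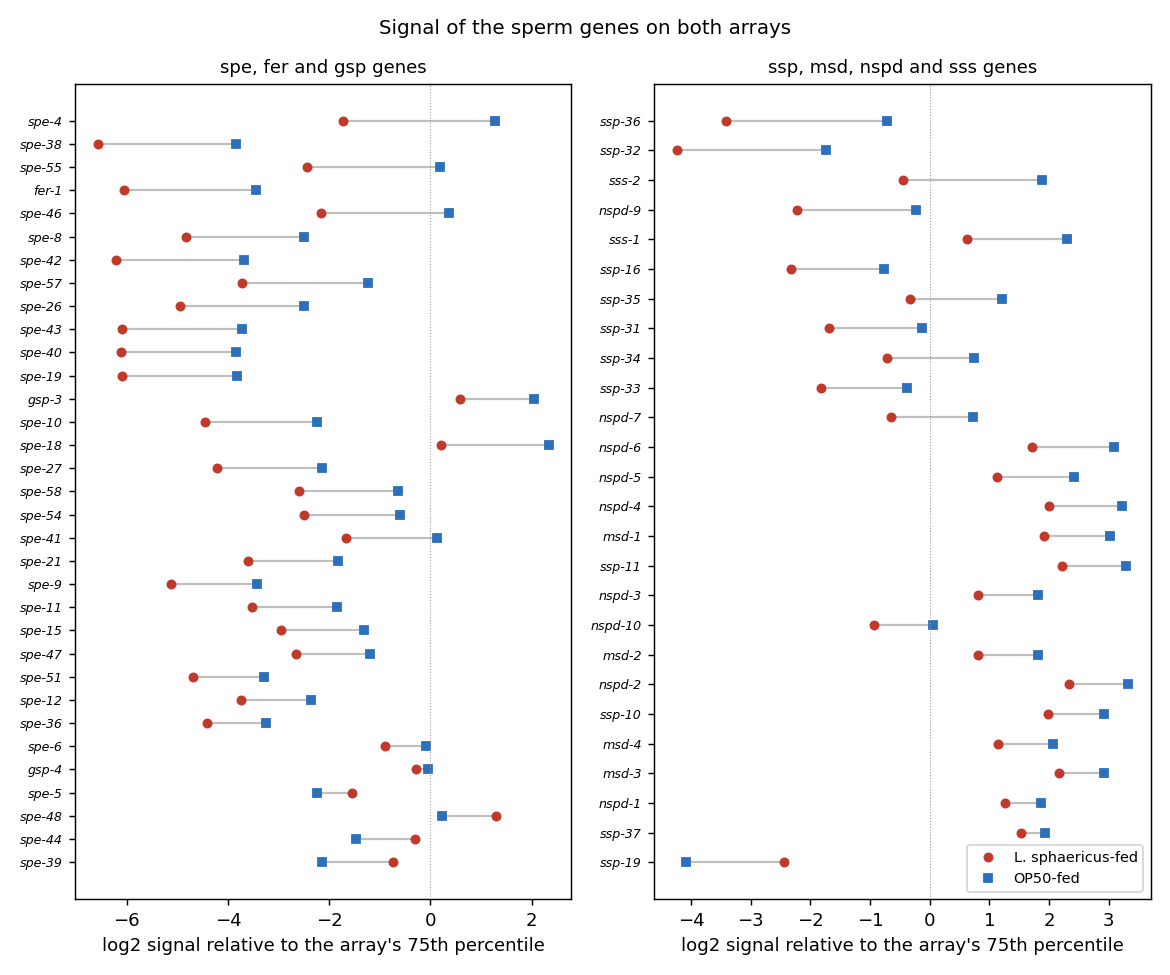
Log2 signal relative to the 75th percentile of the array (horizontal axis, 0 is the percentile) on the L. sphaericus-fed array (red circles) and the OP50-fed array (blue squares) for measured sperm genes (rows, ordered by difference), as the median over measured probes on each array. The red circle lies to the left of the blue square in all rows but those of spe-5, spe-48, spe-44, spe-39 and ssp-19.

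The small sperm proteins were lower as well, by less. Of 26 measured ssp, msd, nspd and sss genes, 18 were at least 2-fold lower, 1 was higher and 7 lay between, with a median of −1.25. The 35 measured spe, fer and gsp genes had a median of −2.08. The gap between the medians was −0.83, and it shrank to −0.35 after quantile normalization and to −0.14 after loess centring along signal brightness. The gap was not tested. Without scaling, 3 of the 26 genes were lower by at least 2-fold and their median was −0.025, beside 14 of 35 and −0.85 for the spe, fer and gsp genes. Of all genes, 11.6% were then at least 2-fold lower, and their median was 1.03. With scaling on the median of all probes 5 of the 26 were lower, beside 20.8% of all genes, and on ribosomal protein genes 4, beside 17.9%. In these settings the small sperm proteins held no larger share of lower genes than all genes did. Relative to the median of all genes, their median was −1.05, which a single scaling factor leaves unchanged. Below the median of all genes lay 25 of the 26. Members of these families are similar in sequence, and a probe may read more than 1 of them.

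Among the ssp genes, whose products include small proteins with an MSP domain, 8 of 11 were at least 2-fold lower. The share of all genes was 32.6%. The 2 probes of ssp-36 gave a scaled signal of 9.39% against 60.8% and a difference of −2.69 ± 0.044 (SD over 2 probes), or 6.47-fold lower. Those of ssp-32 gave 5.30% against 30.0% and −2.50 ± 0.11 (SD over 2 probes), or 5.67-fold lower. Both genes stood below the rest of the family, in which ssp-16, ssp-31, ssp-33, ssp-34 and ssp-35 lay between −1.56 and −1.45. For ssp-11 the signals were 465% in L. sphaericus-fed worms against 980.4% in OP50-fed worms, or 2.11-fold lower, while ssp-10 at −0.94 ± 0.28 (SD over 2 probes) and ssp-37 at −0.41 did not reach 2-fold. Without scaling, these 3 lay above 0. The 1 gene apart was ssp-19, with 18.4% in L. sphaericus-fed worms against 5.90% in OP50-fed worms, or 3.12-fold higher on a single probe. Its difference was between 1.01 and 2.87 over the settings.

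All 4 msd genes, which encode small MSP-domain proteins, lay close to 2-fold lower. Their scaled signals were 378% against 817% for msd-1, 176% against 352% for msd-2, 449% against 755% for msd-3 and 222% against 417% for msd-4, L. sphaericus-fed against OP50-fed. The differences were between −1.11 and −0.75, with only msd-1 past 2-fold, and without scaling all 4 were above 0. Of 9 measured nspd genes, which encode short nematode-specific peptides, 7 were at least 2-fold lower and none was higher. Among all genes, the shares were 32.6% and 22.1%. The furthest apart was nspd-9, with 21.4% in L. sphaericus-fed worms against 85.6% in OP50-fed worms, or 4.003-fold lower. The next, nspd-7, read 63.6% against 166% and was 2.61-fold lower. The least apart were nspd-1, with 239% against 364% and a difference of −0.60, and nspd-2, with 504% against 1002% and −0.99. Without scaling, nspd-1, nspd-2, nspd-3, nspd-4 and nspd-10 lay above 0. Both sss genes were lower. The values were 155% against 495% for sss-1, or 3.19-fold lower, and 73.0% against 368% for sss-2, which the gene table lists as a pseudogene, or 5.04-fold lower.

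Where a gene had several probes, they pointed the same way. Of 14 sperm genes with at least 2 measured probes, 14 had all probes on 1 side of 0, with a median SD of 0.11 over probes and a range from 0.0072 for ssp-11 to 0.60 for gsp-3. The other 47 rest on 1 probe. Over repeated spots of a probe, the log2 difference between the arrays had an SD of 0.15, taken over 33 probes. The error that the scanner software gives came to between 0.20 and 0.30 for the difference of a sperm gene. In 12 sperm genes the difference lay closer to 2-fold than this error, so the side of 2-fold they lie on is not settled. Of these, msd-1, nspd-3, nspd-10, spe-36 and ssp-11 were counted as lower, spe-44 and spe-48 as higher, and msd-2, msd-4, nspd-2, spe-6 and ssp-10 as between. In L. sphaericus-fed worms, 6 genes (fer-1, spe-19, spe-38, spe-40, spe-42 and spe-43) were under 2 times the lowest signal well above background. Without them, 41 of 55 sperm genes were at least 2-fold lower, with a median of −1.48. These errors are technical and hold no spread between worms.

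**Figure D4:**
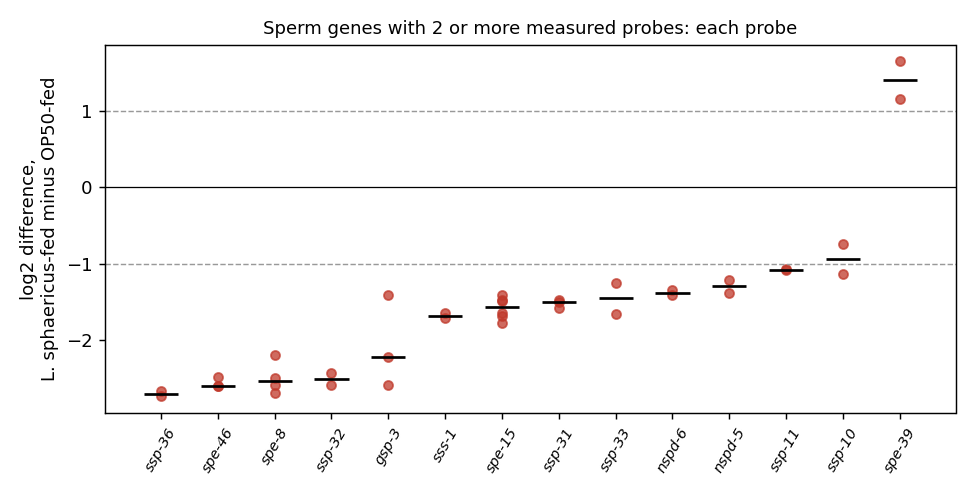
Log2 difference, L. sphaericus-fed minus OP50-fed (vertical axis), of each measured probe (points) and their median (bars) for the 14 sperm genes with at least 2 measured probes (horizontal axis), with dashed lines at 2-fold. The points of a gene share a side of 0 in every column, and those of gsp-3 are the furthest apart (SD 0.60).

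Sperm genes with other names were lower in L. sphaericus-fed worms as well. Of 9 such genes (4 ssq genes, smz-1, smz-2, htas-1, alg-3 and alg-4), 7 were at least 2-fold lower and none higher, with a median of −1.48, against 32.6% of all genes lower. Without scaling, the 4 ssq genes lay above 0 and none of the 9 reached 2-fold lower, beside 11.6% of all genes. The Argonaute genes alg-3 and alg-4, which act in small RNA pathways of spermatogenesis, were the lowest. For alg-3 the scaled signals were 21.3% against 94.5%, or 4.44-fold lower, and for alg-4 13.8% against 53.5%, or 3.88-fold lower. The 27 measured MSP genes, many of them near-identical copies, had a median of −0.94. It was 0.29 without scaling, where the median of all genes was 1.03. At least 2-fold lower were 10 of the MSP genes, or 37.0% beside 32.6% of all genes. With scaling on the median of all probes the number was 0, beside 20.8% of all genes. Relative to the median of all genes, the median of the MSP genes was −0.74, and between −0.99 and −0.46 over the settings. Below the median of all genes lay 26 of the 27.

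A list made up mostly of genes that set the sex of germ cells did not follow the sperm genes. Of 12 measured, 4 were at least 2-fold higher and 1 lower, beside 22.1% and 32.6% of all genes, with a median of 0.65. The list also holds elt-1 and cpb-1, which are not sex determination genes, at 0.32 and 1.03. Of the 4 counted as higher, 1 is thus cpb-1. The gene fog-3, required for germ cells to become sperm, was the lower one, with 12.3% in L. sphaericus-fed worms against 73.0% in OP50-fed worms, or 5.95-fold. The scaled signal of fog-1, required with it, was 69.3% against 70.6%, a difference of −0.034 ± 0.43 (SD over 3 probes). On the higher side, fog-2, which allows hermaphrodites to make sperm, read 185% in L. sphaericus-fed worms against 41.6% in OP50-fed worms, a difference of 2.15 ± 0.24 (SD over 3 probes). The sperm-promoting gene fem-3 had 497% against 131% and was 3.78-fold higher. The 2 probes of tra-1 were far apart, at −0.98 ± 1.51 (SD over 2 probes). In settings that move all genes up, more of this list were higher, 8 with scaling on the median of all probes (beside 37.9% of all genes) and 10 without scaling (beside 50.6%).

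Among 4 further genes of sperm activation, 2 were at least 2-fold lower and 2 higher, beside 32.6% and 22.1% of all genes. The transporter gene snf-10, needed in sperm to respond to protease, read 2.95% in L. sphaericus-fed worms against 19.6% in OP50-fed worms, a difference of −2.74 ± 0.26 (SD over 3 probes). The protease inhibitor gene swm-1 was 2.08-fold lower, a difference that lay above 0 without scaling. The zinc transporter gene zipt-7.1 had 244% against 58.6% and was 4.16-fold higher. The gene try-5, for an activating protease of male seminal fluid, read 3.84% against 1.87% and was 2.06-fold higher, near the lowest signals well above background.

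Markers of other germ cells lay on the opposite side from the sperm genes. Of 12 oocyte markers, 11 were at least 2-fold higher and none lower, with differences between 0.56 and 3.26 and a median of 2.53 that lay between 2.33 and 3.76 over the settings. Of 8 markers of mitotic and meiotic germ cells, 6 were higher by at least 2-fold (median 1.30). The share of all genes at least 2-fold higher was 22.1%. Among 7 markers of male neurons, 3 were measured, all at least 2-fold lower (beside 32.6% of all genes), with a median of −2.32. Of the defining genes of that cell type, lov-1 was not well above background on either array, and pkd-2 was so in L. sphaericus-fed worms only, at 1.16% against 1.18%. The markers of muscle, gut, yolk and epidermis (myo-3, unc-54, ges-1, vit-2 and dpy-7) lay between −1.51 and 0.46. The part of germ line age, sex or the proportion of germ cells in the differences of the sperm genes was not tested.

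**Figure D5:**
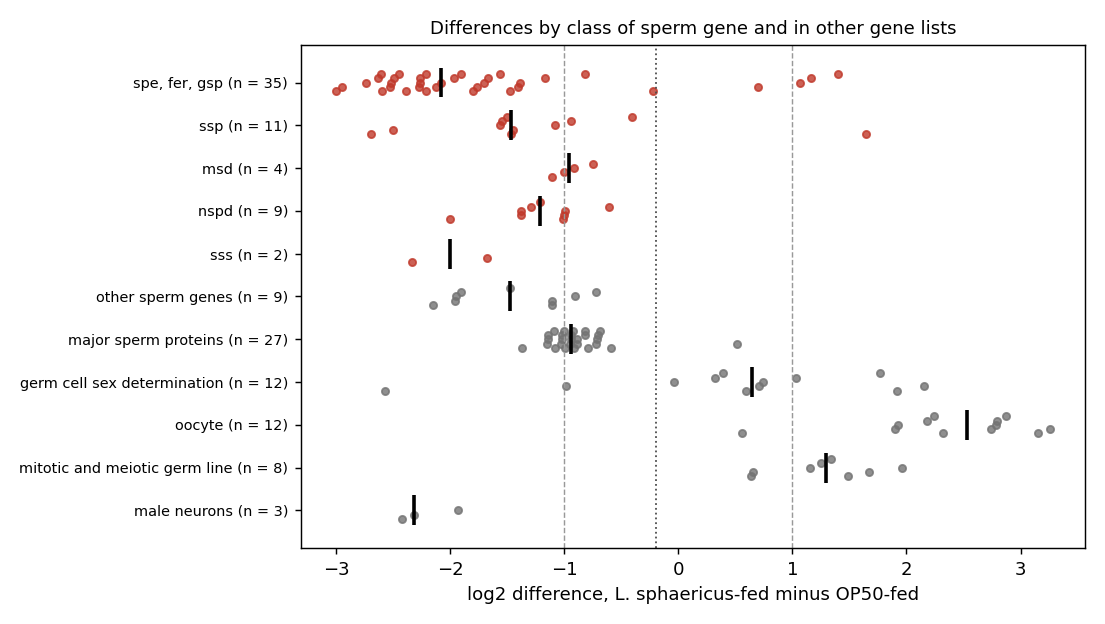
Log2 difference, L. sphaericus-fed minus OP50-fed (horizontal axis), of each measured gene (points) with the median (bars) for the classes of sperm genes (red) and for other gene lists (grey). The dotted line is the median of all measured genes (−0.20) and the dashed lines are 2-fold. The medians of the sperm gene classes run from −2.08 for spe, fer and gsp genes to −0.95 for msd genes (0.27 without scaling). Those of the male neuron and oocyte markers lie at −2.32 and 2.53.

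The sperm genes were unevenly spread over the chromosomes, a trait that the choice by symbol did not use. Of 64, 23 lie on chromosome I and 24 on chromosome IV, and 0 on the X chromosome, which carries 13.7% of the protein-coding genes with a probe. Chromosomes I and IV carry 14.7% and 16.2% of them. The median difference of the sperm genes was −1.56 on I, −1.71 on II, −1.76 on III, −1.41 on IV and −2.21 on V. The medians of all measured genes on I, II, III, IV and V were 0.23, −0.11, 0.21, −0.18 and −0.62. The median of the sperm genes was thus below that of all genes of the same chromosome on all 5. It rests on 22, 4, 5, 23 and 7 measured sperm genes on I, II, III, IV and V.

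Some sperm genes lie near each other in the order of the gene table, with at most 5 protein-coding genes between them. Neighbours were alike in some cases, such as nspd-4 and nspd-5 (−1.21 and −1.29) and the trio msd-1, msd-2 and msd-3 (between −1.11 and −0.75). They differed in size in others. The gene ssp-36 at −2.69 lies near msp-78 and msp-79 at −0.94 and −0.71, and spe-55 at −2.63 lies near msp-55 at −1.09. The gene ssp-19, higher in L. sphaericus-fed worms, lies near nspd-8, whose probe was not well above background on either array. Next to ssp-19 in that order is C55C2.3, at −2.72.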

How the data were processed

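Total RNA of whole worms was measured on 2 one-colour Agilent arrays. Per the file headers, Agilent Feature Extraction 11.0.1.1 subtracted the background and wrote a processed intensity per spot on a linear scale, and the array design cites genome build ce4. The authors deposited these intensity values with flags, and other quantities of the files are marks of the software. The deposited series table holds the same intensity: within 0.01 log2 units for 43562 (L. sphaericus-fed) and 43559 (OP50-fed) of 43579 probes, with column medians of 369 and 247, unscaled, uncentred and in the direction of its own array. Both arrays lay on 1 slide and were read in 1 scan.

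From the scanner files, control spots and 36 outlier spots were left out, and no spot was saturated. The log2 processed intensity was averaged per probe and the 75th percentile over 43579 probes subtracted. Probes were named through systematic names in a RefSeq table of assembly WBcel235 (34298 probes, 19807 genes). 31043 probes were well above background on both arrays, covering 15301 named genes. The steps were run in Python 3.11.15 and tested on simulated data. The number of arrays limits the precision, and groups come from the samples' titles. Where a gene was above background on 1 array only, the fold is a bound against the lowest signal well above background. Measured members with a listed role are given with their values, except 2 that are not reported here, and of the other classes and of the lists of other sperm, sex determination and activation genes the 2 furthest in each direction. Cell type markers are given as counts and medians. The members and lists were chosen with earlier results of these data known. Genes outside this rule (spe-40, spe-54, spe-58, fog-1, tra-1, elt-1, cpb-1, other ssp, msd and nspd genes, and neighbours) were chosen after their values were seen. Alternatives covered background (normexp of limma 3.58.1, offset 50, on the median signal because the files hold no mean signal), scaling (loess span 0.3), filters, probe summary and source.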

Additional observations from a re-analysis of the deposited data

How the results depend on the processing

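Results describe 1 array per diet, so the settings show the dependence on processing and not on the worms. Without scaling, 17 sperm genes were at least 2-fold lower, against 24 with scaling on ribosomal protein genes, 29 with scaling on the median of all probes and 29 at a 3-fold threshold. The number at least 2-fold higher was 2 with the percentile of detected probes and 1 at 3-fold. The median relative to all genes was −1.07 with normexp, −1.07 without the filter on dim probes and −1.52 with the brighter probes only (median signal or more). Without scaling, 6 genes past 2-fold turned to the higher side: msd-1 (0.12), nspd-3 (0.22), nspd-4 (0.017), nspd-10 (0.22), spe-36 (0.062) and ssp-11 (0.15). A constant shift of all genes accounts for changes with scaling by construction. Of all genes past 2-fold, 40.4% were higher as reported, 64.6% with median scaling, 69.9% with ribosomal scaling, 50.5% after quantile normalization and 81.4% without scaling. In all, 46 of 61 sperm genes kept their sign under the 12 alternatives that give a value. The slide could not be fitted as a block, since both arrays lay on 1. No paired analysis was possible because each diet has 1 array. Signals near background limit the size of the differences of the dimmest spe and fer genes.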
